A study of Homo sapiens with 12 samples.

Results

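The genes described are protein-coding genes that flank the long noncoding RNA gene FASRL in band 16q22. They were picked from the coding genes around that locus with earlier results of these data known, and are not all genes within a set distance. The 10 named were NOB1, NIP7, VPS4A, NFAT5, SNTB2, WWP2, CYB5B, TERF2, COG8 and DDX19A. Of these 10, the first 5 were listed in the expression tables, which held 8697 of 20052 coding genes (43.4%), and the last 5 were not analysed here. RNA-seq was made from HepG2 and LM3, established human liver cancer cell lines, each transfected with small interfering RNA against FASRL (siFASRL) or with negative control small interfering RNA (siNC) and collected 48 h later. Each of the 4 groups, HepG2 siNC, HepG2 siFASRL, LM3 siNC and LM3 siFASRL, held 3 libraries. The paper states in general that its cell line experiments were repeated. No source used here says that the 3 libraries of a group came from separate cultures. The p-values therefore measure the spread between these libraries, which may be technical. FASRL itself was not analysed here, so the depth of the knockdown was not measured in these libraries. The paper reports that it checked the efficiency of the knockdown in both lines. The sample labels do not say which small interfering RNA against FASRL was used. The question was whether a rise of NOB1, the gene antisense to FASRL, was shared by its neighbours.

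Markers of the cell type separated the lines. Of 12 hepatocyte markers, 11 were listed. Their summed value was 4287 to 4746 in the HepG2 siNC libraries and 15.5 to 20.0 in the LM3 siNC libraries. Albumin (ALB) had a value of 815 ± 32 (SD, n = 3) in HepG2 siNC and 0.36 ± 0.28 (SD, n = 3) in LM3 siNC. Markers of secreted liver proteins were thus low in LM3, whereas the epithelial keratin KRT18 was high in both lines, at 695 ± 37 and 940 ± 76 (SD, n = 3 each). After siFASRL the summed hepatocyte value was 2517 to 2581 in HepG2 and 6.88 to 8.03 in LM3, and 10 of 11 markers were lower in HepG2. In LM3 the sum was mostly HNF4A, which went from 14.3 to 6.71 and was the 1 hepatocyte marker high enough to be tested. Of 4 fibroblast and stellate markers, 3 were lower and 1 higher in HepG2 (median log2 change -0.44). In LM3, 2 of 2 tested were lower (median -1.06). Beside these marker counts, 44.8% of all genes tested were called higher and 44.3% lower in HepG2. In LM3 these shares were 33.9% and 43.5%. KRT18 was lower in LM3 (-0.31) and not called in HepG2 (0.13). The blood marker CD68 was higher in LM3 (0.23) and not called in HepG2 (0.11). Whether the flanking genes changed with these markers was not tested.

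NOB1 and NIP7 act in ribosome assembly, and the other listed genes act elsewhere in the cell. NOB1 is the endonuclease that makes the last cleavage in the precursor of the small-subunit ribosomal RNA. NIP7 is a nucleolar factor of ribosomal RNA processing and ribosome assembly. VPS4A is the ATPase that takes apart ESCRT-III filaments on membranes, NFAT5 is the transcription factor of the response to hypertonic stress, and SNTB2 is a syntrophin, an adaptor of the dystrophin complex at the cell membrane. Neighbouring genes can share regulatory DNA, and genes on opposite strands can share exonic sequence.

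In the RefSeq gene table (GRCh38.p14), FASRL is another name of NQO1-DT, on the plus strand at chr16:69726727-69743918. NOB1 lies on the minus strand at chr16:69741871-69754926, so the ends of the genes overlap by 693 bases with the GENCODE v29 model of FASRL, chr16:69727013-69742563, or by 2048 with the longer RefSeq model. In GENCODE v29, 429 of the 2119 exonic bases of NOB1 (20.2%) were also exonic in FASRL, and 229 of them lay in coding sequence of NOB1. It is not stated whether read counting used strand, and without strand, reads of NOB1 and FASRL in this stretch cannot be told apart. NFAT5 ended 22.1 kb from FASRL. NIP7, VPS4A and SNTB2 formed a cluster of 155.9 kb, at 383.6, 399.8 and 417.7 kb from FASRL. Within it, NIP7 shared 957 of 4749 exonic bases with COG8 on the other strand, and VPS4A shared 1245 of 5670 with COG8 and 1191 with the same-strand read-through gene AC026464.4, 2064 (36.4%) with any gene. NFAT5 shared 1649 of 16401 (10.1%) with noncoding genes. Reads in these shared stretches cannot be told apart either where strand does not separate them.

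NOB1, whose protein completes small-subunit RNA, was higher after siFASRL in every library of both lines. Its deposited values in HepG2 were 53.2, 57.3 and 52.9 with siNC and 74.7, 75.3 and 72.8 with siFASRL. In LM3 they were 44.8, 50.6 and 51.1 with siNC and 90.9, 89.05 and 89.6 with siFASRL. The groups did not overlap in either line, and the LM3 siFASRL libraries stood above all others. The ratio of the group means was 1.36 in HepG2 and 1.84 in LM3. On the log2(value + 1) scale, NOB1 rose by 0.44 ± 0.056 (SE) in HepG2, with a limma adjusted p of 5.23e-05, and by 0.87 ± 0.061 (SE) in LM3, with a limma adjusted p of 4.32e-06. With quantile normalization the HepG2 rise was 0.29 (limma adjusted p 0.00108). The fold change on the log2(value + 1) scale understates changes of genes with low values. The 2-sided exact permutation test gave p = 0.1 in each line, the smallest that 3 libraries against 3 allow. Among all genes tested, 78.8% had a lower log2 change than NOB1 in HepG2, and 97.7% had a lower one in LM3. The rise was larger in LM3, by 0.43 ± 0.079 (SE) on the log2 scale (limma adjusted p of the difference 0.00068).

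NIP7, the nucleolar ribosome assembly factor, was also higher after siFASRL in both lines. It had values of 13.4, 13.0 and 12.5 in HepG2 siNC and of 17.6, 21.3 and 20.8 in HepG2 siFASRL. In LM3 it had values of 16.2, 17.0 and 17.2 with siNC and of 30.7, 31.1 and 31.4 with siFASRL. All siFASRL libraries were above all siNC libraries, and replicate 1 of HepG2 siFASRL was the lowest of them. The log2 rise was 0.58 ± 0.076 (SE) in HepG2 (limma adjusted p 6.69e-05) and 0.85 ± 0.048 (SE) in LM3 (limma adjusted p 1.58e-06). The rise in LM3 exceeded that in HepG2 by 0.27 ± 0.091 (SE), with a limma adjusted p of 0.0258. That call was lost without HepG2 siNC replicate 1 (adjusted p 0.0611), without LM3 siFASRL replicate 3 (0.053) and with quantile normalization (0.0522), while its other alternatives kept it.

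VPS4A, the ESCRT-III disassembly ATPase, showed a smaller rise. HepG2 values were 29.79, 29.15 and 29.01 with siNC and 37.2, 36.3 and 35.9 with siFASRL. LM3 values were 40.01, 45.59 and 44.07 with siNC and 48.9, 51.4 and 47.4 with siFASRL. The groups were apart in both lines, but in LM3 the lowest siFASRL library was close to the highest siNC library. The log2 change was 0.30 ± 0.052 (SE) in HepG2 (limma adjusted p 0.000345) and 0.18 ± 0.063 (SE) in LM3 (limma adjusted p 0.0255). The LM3 call did not hold without siFASRL replicate 1 (adjusted p 0.0614), without siFASRL replicate 2 (0.0984) or with quantile normalization, where the change was 0.09 (0.204), while median-of-ratios scaling raised the change to 0.30 (0.00195). The changes of the lines differed by -0.12 ± 0.076 (SE), which did not pass the test (limma adjusted p 0.218).

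NFAT5, the osmotic stress factor and the listed gene nearest to FASRL after NOB1, went the other way. It was at 15.2, 14.1 and 13.6 in HepG2 siNC and at 10.6, 10.4 and 11.1 in HepG2 siFASRL. The LM3 libraries were at 13.4, 11.6 and 12.2 with siNC and at 8.83, 8.38 and 8.29 with siFASRL. Every siFASRL library was below every siNC library of its line. NFAT5 fell by 0.39 ± 0.061 (SE) on the log2 scale in HepG2 (limma adjusted p 0.000201) and fell by 0.49 ± 0.062 (SE) in LM3 (limma adjusted p 0.000115). A difference of the effect between the lines was not called (-0.11 ± 0.085 (SE), limma adjusted p 0.329).

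SNTB2, the syntrophin, was lower after siFASRL in every library of both lines, and in HepG2 its change was the largest of the 5 listed members. Values in HepG2 were 8.41, 8.52 and 7.83 with siNC and 3.61, 3.56 and 3.63 with siFASRL. Values in LM3 were 6.71, 6.86 and 6.86 with siNC and 2.99, 3.10 and 3.32 with siFASRL. The siFASRL groups were thus at 0.436 and 0.461 of the siNC means, with no overlap. SNTB2 fell by 1.01 ± 0.055 (SE) in HepG2 (limma adjusted p 2.61e-07) and fell by 0.92 ± 0.051 (SE) in LM3 (limma adjusted p 1.42e-06). Of all genes tested, 6.64% changed more negatively in HepG2 and 7.70% in LM3. The effect of the lines differed by 0.09 ± 0.067 (SE), which was not called (limma adjusted p 0.294), although quantile normalization gave 0.38 with an adjusted p of 0.000449.

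**Figure D1:**
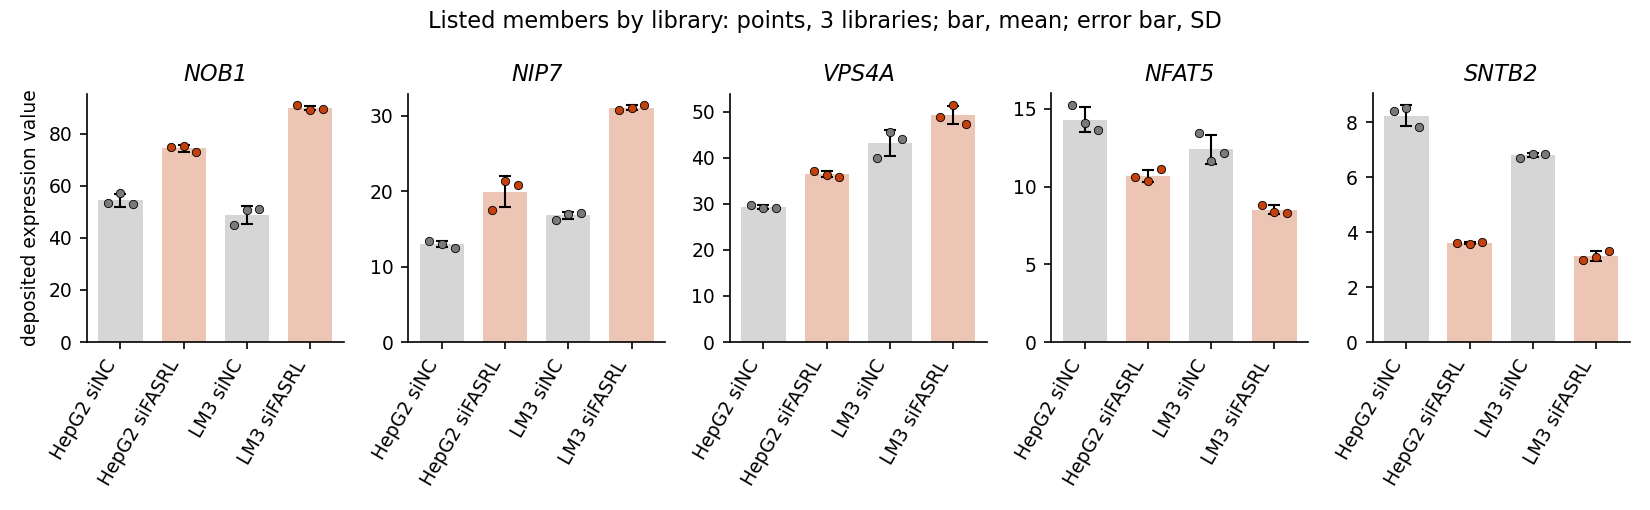
Deposited expression values of the 5 listed members in the 12 libraries (points), with the mean (bar) and SD (error bar) of 3 libraries per group; the y axis of each panel starts at 0. NOB1, NIP7 and VPS4A were higher and NFAT5 and SNTB2 lower after siFASRL in both lines.

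In all, 3 of 5 members were higher and 2 of 5 lower in each line. These counts stand against a background in which most genes changed. In HepG2, 44.8% of the 8144 genes tested were called higher and 44.3% lower at an adjusted p under 0.05. In LM3, 33.9% of the 7483 genes tested were called higher and 43.5% lower, a balance that turned to 42.0% and 37.0% with median-of-ratios scaling and to 37.5% and 34.7% with quantile normalization. Being called, in either direction, was therefore common in these tables and did not set the members apart. How genes came to be listed is not stated, and HepG2 changes just below 0 were nearly absent. If listing depended on change, calls and non-overlap of listed members were partly fixed in advance. This was not tested. With an absolute log2 change of at least 1 required as well, SNTB2 alone passed in HepG2 (1 of 5, against 10.4% of genes tested), at -1.01. It passed in 10 of 13 alternatives and not with quantile normalization (-0.82) or without siNC replicate 1 or 2. In LM3 limma called 0 of 5 by that rule, against 7.62% of genes tested, while 5 of 5 had an unadjusted p under 0.05, as had 78.8% of genes tested. SNTB2 passed there with a pseudocount of 0.1 (-1.10) and in no other alternative. The siNC and siFASRL groups did not overlap for 5 of 5 members in both lines, against 89.6% of genes tested in HepG2 and 80.1% in LM3.

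The direction of each member was the same in both lines. Of 7349 genes tested in both lines, 2176 (29.6%) were called higher in both and 2646 (36.0%) lower in both. Median log2 change over all genes tested was 0.10 in HepG2 and -0.06 in LM3. Taken relative to those medians, NOB1 was at 0.34 and 0.93, NIP7 at 0.47 and 0.91, VPS4A at 0.20 and 0.25, NFAT5 at -0.49 and -0.43, and SNTB2 at -1.11 and -0.86, in HepG2 and LM3. Median-of-ratios scaling moved the LM3 median by 0.107, and no member changed direction within a line under either scaling tried. The difference of the effect between the lines was called for 2 of 5 members, NOB1 and NIP7, against 46.7% of the 8285 genes tested. Of all genes with such a call, 41.7% had a more positive change in LM3 than in HepG2 with the values as deposited. After median-of-ratios scaling it was 52.7%.

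Without knockdown, VPS4A and NIP7 were higher in LM3 than in HepG2, and SNTB2 and NFAT5 were lower. LM3 minus HepG2 under siNC was 0.54 ± 0.063 (SE) on the log2 scale for VPS4A (limma adjusted p 5.98e-05) and 0.35 ± 0.054 (SE) for NIP7 (limma adjusted p 0.000402). It was -0.24 ± 0.054 (SE) for SNTB2 (limma adjusted p 0.00312) and -0.19 ± 0.070 (SE) for NFAT5 (limma adjusted p 0.0321). NOB1 had a difference of -0.16 ± 0.069 (SE), which was not called (limma adjusted p 0.0659). Thus 4 of 5 members were called, against 80.9% of the 8176 genes tested. The calls of NFAT5 and SNTB2 were lost with quantile normalization (adjusted p 0.091 and 0.178), which moved the median of all genes by 0.136, and NOB1 was called with it (0.0197) and with the replicate block (0.0454). The NFAT5 call was also lost without HepG2 siNC replicate 1 (0.121) or 2 (0.056) and without LM3 siNC replicate 2 (0.116) or 3 (0.0886). The order of the NOB1 groups was LM3 siNC, HepG2 siNC, HepG2 siFASRL and LM3 siFASRL from low to high, and the lowest pair is the one whose difference was not called.

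Of 15 coding genes within 500 kb of FASRL, 7 were listed, and in each line 3 were higher, 3 lower and 1 neither. That is 42.9% higher and 42.9% lower, beside 44.8% and 44.3% of all genes tested in HepG2 and 33.9% and 43.5% in LM3. With median-of-ratios scaling the LM3 count was again 3 higher and 3 lower of 7, beside 42.0% and 37.0% of all genes, and with quantile normalization 2 were higher and 2 lower. NQO1, on the other strand with its start 167 bases from that of the RefSeq model of FASRL, was not listed. Its change could therefore not be read. The listed genes there beyond the members were PDF and PDPR. PDF, a mitochondrial peptide deformylase gene 396.1 kb away, changed by 0.26 ± 0.14 (SE) in HepG2 (limma adjusted p 0.106) and by 0.04 ± 0.098 (SE) in LM3 (limma adjusted p 0.734), neither called. In HepG2 it was called with quantile normalization (0.37, adjusted p 0.0342), with the replicate block (0.0197), without siFASRL replicate 1 (0.39, 0.0252) and without siNC replicate 2 (0.38, 0.0315), and with 1 library left out the value ranged from 0.13 to 0.39, so the 1 of 7 called in neither direction there is uncertain. PDPR, which encodes the regulatory subunit of pyruvate dehydrogenase phosphatase and lies 369.7 kb away on the other side, fell by 0.62 ± 0.056 (SE) in HepG2 (limma adjusted p 5.41e-06) and fell by 0.26 ± 0.055 (SE) in LM3 (limma adjusted p 0.00247). Under quantile normalization the LM3 change of PDPR was -0.06 with an adjusted p of 0.3. Adjacent genes went in opposite directions: SNTB2 and VPS4A are separated by 2297 bases, and the first fell while the second rose.

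Wider windows also held both directions. Within 1000 kb, 17 of 33 coding genes were listed, with 9 of 16 tested higher and 6 lower in HepG2, and 8 of 15 higher and 4 lower in LM3. Within 2000 kb, 38 of 69 were listed, with 14 of 34 tested higher and 15 lower in HepG2, and 13 of 34 higher and 12 lower in LM3. These are 41.2% and 44.1% in HepG2 and 38.2% and 35.3% in LM3, beside the shares of all genes called given above. Within 1000 kb they were 56.2% and 37.5% in HepG2 and 53.3% and 26.7% in LM3. Within 2000 kb and leaving out the members, 11 of 29 were higher and 13 lower in HepG2, and 10 of 29 were higher and 10 lower in LM3. The median log2 change within 2000 kb was 0.14 in HepG2 and 0.04 in LM3, beside the medians of 0.10 and -0.06 over all genes tested. Among genes tested, the largest log2 rise in that window was that of UTP4, a ribosomal small-subunit processome gene 557.7 kb away. It was named after its values were seen. UTP4 rose by 0.98 ± 0.059 (SE) in HepG2 (limma adjusted p 4.37e-07) and by 1.22 ± 0.049 (SE) in LM3 (limma adjusted p 3.63e-07). The largest fall in HepG2 was that of the cadherin gene CDH1, also named after its values were seen, at -1.54 on the log2 scale (limma adjusted p 7.97e-08). In LM3, CDH1 was too low to be tested.

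**Figure D2:**
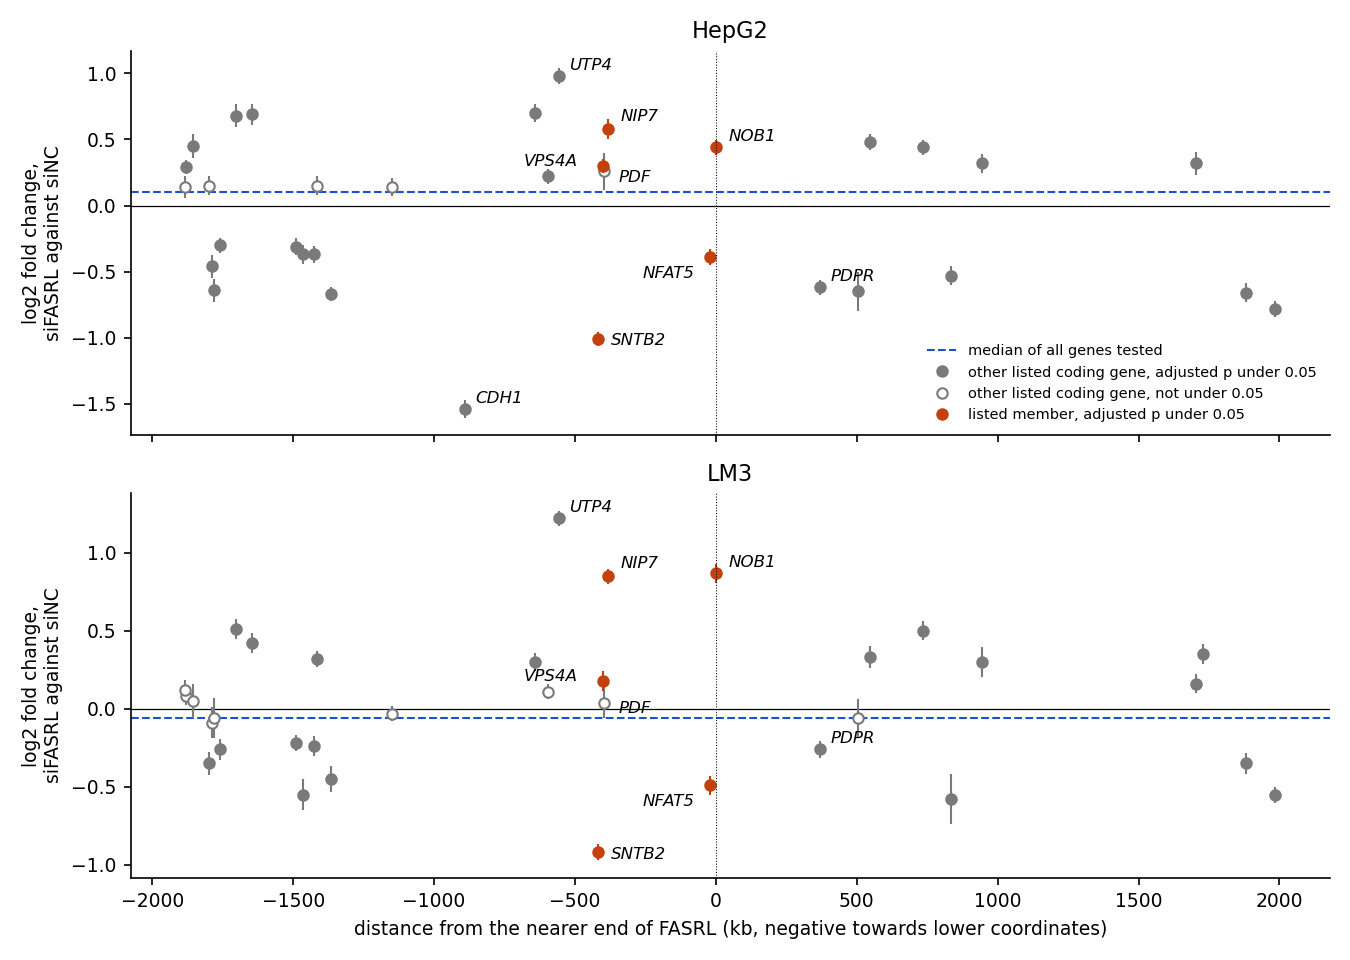
Log2 fold change (siFASRL against siNC, error bars SE of 3 against 3 libraries) of listed coding genes within 2000 kb of FASRL, against distance in kb, in HepG2 (top) and LM3 (bottom). Members are in red, filled points had an adjusted p under 0.05, and the dashed line is the median of all genes tested; higher and lower genes were interleaved along the whole stretch.

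**Figure D3:**
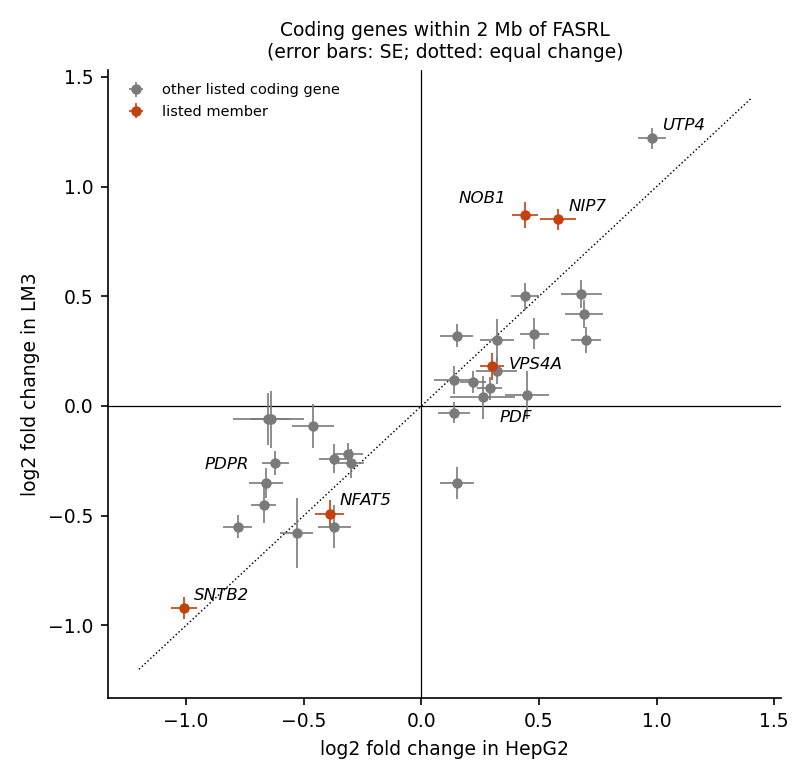
Log2 fold change of the same coding genes in LM3 (y axis) against HepG2 (x axis), with SE as error bars and a dotted line of equal change. NOB1 (0.44 and 0.87) and NIP7 (0.58 and 0.85) lay above the line.

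Sequence upstream of the members that moved most, or together, was read from the RefSeq promoter table (GRCh38.p14), which held 4 of the 5 listed members. The motifs were chosen after the expression values were seen and searched on both strands within the 250 bases before each start. For NIP7 the stretch read was 30 bases and for SNTB2 215, so their counts cover those bases only. NRF1-type letters, GCGCATGCG, were in 1.64% of all 35116 promoters, ETS-type letters, CCGGAAG, in 8.52%, and the E-box CACGTG in 6.34%. NOB1 held the NRF1-type letters at 2 places, 141 and 16 bases before the start. Both places are palindromic stretches in which matches on the strands overlap. The NOB1 stretch is minus strand, chr16:69754927-69755176, with capitals marking these letters and 14 of its bases lying in an annotated exon of NOB1.
NOB1: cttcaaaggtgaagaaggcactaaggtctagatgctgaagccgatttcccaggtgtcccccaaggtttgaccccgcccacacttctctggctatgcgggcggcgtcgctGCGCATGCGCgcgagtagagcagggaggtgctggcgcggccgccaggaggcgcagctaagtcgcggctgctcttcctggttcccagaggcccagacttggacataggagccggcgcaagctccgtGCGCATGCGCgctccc

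The start of NIP7 lies 208 bases from that of COG8, which points the other way, so their upstream stretches overlap. The ETS-type letters stood once in the 30 bases read for NIP7, 195 bases before its start. The same site stands 19 bases before the start of COG8. SNTB2 held the same letters once in 215 bases, 128 bases before its start. Genes that rose and fell therefore shared them, and VPS4A held none of the 3 motifs. No E-box stood in the stretches read for NOB1, NIP7, SNTB2 or VPS4A. A match describes letters only and names no bound factor. The stretches are plus strand, chr16:69339565-69339594 for NIP7 and chr16:69186914-69187128 for SNTB2, with the ETS-type letters in capitals. The NIP7 stretch lies in annotated exons of COG8 and NIP7, and the SNTB2 stretch in none.
NIP7: aacgtcacttccCTTCCGGaccacaagggg
SNTB2: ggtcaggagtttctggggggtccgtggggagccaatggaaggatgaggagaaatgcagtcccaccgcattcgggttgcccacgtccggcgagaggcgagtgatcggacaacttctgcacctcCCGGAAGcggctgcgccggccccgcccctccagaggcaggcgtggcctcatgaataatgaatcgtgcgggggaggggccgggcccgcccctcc

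Genes that work with each member, most of them on other chromosomes, were read beside it. Of the pre-40S maturation list of NOB1, 13 of 14 genes were listed and tested. In HepG2, 13 of 13 were higher, with a median log2 change of 0.60, and in LM3 12 of 13 were higher, with a median of 0.69. The median over all genes tested was 0.10 and -0.06. RRP12, a ribosome export factor, rose by 1.46 ± 0.055 (SE) in HepG2 and 0.98 ± 0.068 (SE) in LM3 (limma adjusted p 4.59e-08 and 3.92e-06). DHX37, a helicase of the small-subunit processome, rose by 1.29 ± 0.059 (SE) and 0.74 ± 0.062 (SE) (limma adjusted p 1.04e-07 and 1.09e-05). NOB1 itself, at 0.44 and 0.87, was below the list median in HepG2 and above it in LM3.

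The pre-60S and rRNA processing list of NIP7 moved the same way. All 16 genes were listed, 14 were higher in HepG2 and 15 in LM3, and the medians were 0.72 and 0.67. SBDS, which helps to release EIF6 from the large subunit, rose by 1.45 ± 0.057 (SE) in HepG2 and 0.92 ± 0.048 (SE) in LM3 (limma adjusted p 5.16e-08 and 1.12e-06). DKC1, the pseudouridine synthase of box H/ACA particles, rose by 1.30 ± 0.059 (SE) and 1.32 ± 0.065 (SE) (limma adjusted p 9.86e-08 and 8.21e-07). EBNA1BP2, a large-subunit assembly factor, rose by 1.32 ± 0.055 (SE) and 0.83 ± 0.046 (SE) (limma adjusted p 7.22e-08 and 1.44e-06). Most genes of both ribosome assembly lists, which were chosen with earlier results of these data known, were therefore higher, as NOB1 and NIP7 were. Of all genes tested, 44.8% were called higher in HepG2 and 33.9% in LM3.

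Most listed partners of NFAT5 and SNTB2 were lower, in small lists chosen with earlier results of these data known. Of all genes tested, 44.3% were called lower in HepG2 and 43.5% in LM3. Whether the lists differ from these shares was not tested. Of 8 osmotic response targets of NFAT5, 4 were listed, 4 of 4 were lower in HepG2 (median -0.37), and 3 of 3 tested were lower in LM3 (median -0.89). The betaine transporter gene SLC6A12 fell by 1.83 ± 0.11 (SE) in HepG2 (limma adjusted p 4.6e-07) and in LM3 was listed at 0 in all siFASRL libraries and at 0.02 to 0.09 in siNC. Of 9 genes of the syntrophin and dystrophin complex, 5 were listed. In HepG2, 4 of 5 were lower and DMD was higher (median -0.43), and in LM3 4 of 4 tested, DMD among them, were lower (median -0.48). DMD, the dystrophin gene, was named after its values were seen, at 0.46 in HepG2 and -0.20 in LM3. The paralog SNTB1 fell by 1.21 ± 0.054 (SE) in HepG2 (limma adjusted p 9.06e-08) and was under 1 in every LM3 library.

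Partners of VPS4A were called in both directions. In the ESCRT-III and VPS4 list, 7 of 14 were listed, with 2 higher and 2 lower in HepG2 (median 0.09) and 1 higher and 2 lower in LM3 (median -0.03). The paralog VPS4B fell by 0.83 ± 0.053 (SE) in HepG2 and fell by 0.59 ± 0.050 (SE) in LM3 (limma adjusted p 6.1e-07 and 1.1e-05), opposite to VPS4A. CHMP5, an ESCRT-III protein, fell by 0.61 ± 0.066 (SE) and fell by 0.32 ± 0.048 (SE) (limma adjusted p 1.74e-05 and 0.000296). With median-of-ratios scaling the LM3 change of CHMP5 was -0.21.

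For WWP2, an E3 ubiquitin ligase, 6 of 10 NEDD4-type ligase genes were listed, with 3 higher and 1 lower in HepG2 (median 0.23) and 1 higher and 4 lower in LM3 (median -0.26). The ligase gene WWP1 fell by 0.55 ± 0.057 (SE) in HepG2 and fell by 0.71 ± 0.056 (SE) in LM3 (limma adjusted p 1.33e-05 and 7.15e-06). NEDD4 rose by 0.69 ± 0.056 (SE) and 0.15 ± 0.052 (SE) (limma adjusted p 2.69e-06 and 0.0306), the latter lost with the replicate block (0.0653) and when siFASRL replicate 1 (0.0724) or 3 (0.104) or siNC replicate 2 (0.0697) or 3 (0.107) was left out. Median-of-ratios scaling raised the LM3 change of NEDD4 to 0.25 and quantile normalization to 0.33. This list thus had different counts in the lines. For CYB5B, a cytochrome b5 of the mitochondrial outer membrane, 5 of 7 partner genes were listed, with 1 higher and 3 lower in HepG2 (median -0.33) and 3 lower in LM3 (median -0.52). CYB5A fell by 0.68 ± 0.079 (SE) and fell by 0.59 ± 0.082 (SE), and CYB5R3 fell by 0.33 ± 0.061 (SE) and fell by 0.57 ± 0.064 (SE), in HepG2 and LM3. For TERF2, a telomere protein, 2 of 5 shelterin genes were listed. TERF1 fell by 0.56 ± 0.064 (SE) and fell by 0.38 ± 0.080 (SE), and TINF2 was at 0.08 in both lines and not called. In LM3, TINF2 was called with median-of-ratios scaling (0.18, adjusted p 0.0107) and with quantile normalization (0.20, adjusted p 0.00732).

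For COG8, a subunit of the Golgi tethering complex, 5 of 7 other subunits were listed, with 3 higher and 1 lower in HepG2 (median 0.17) and 4 higher and 1 lower in LM3 (median 0.21). COG3 fell by 0.66 ± 0.071 (SE) and fell by 0.64 ± 0.063 (SE), while COG4, itself 736.6 kb from FASRL, rose by 0.44 ± 0.058 (SE) and 0.50 ± 0.062 (SE). With quantile normalization the LM3 change of COG3 was -0.36. For DDX19A, a helicase of mRNA export, 6 of 9 genes were listed, with 5 higher and 1 lower in each line (medians 0.46 and 0.38). NXT1, an export cofactor, rose by 0.85 ± 0.071 (SE) and 0.59 ± 0.069 (SE), and GLE1, which activates the helicase, rose by 0.58 ± 0.058 (SE) and 0.36 ± 0.050 (SE). These lists are small, and their counts stand beside the share of all genes called given above.

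**Figure D4:**
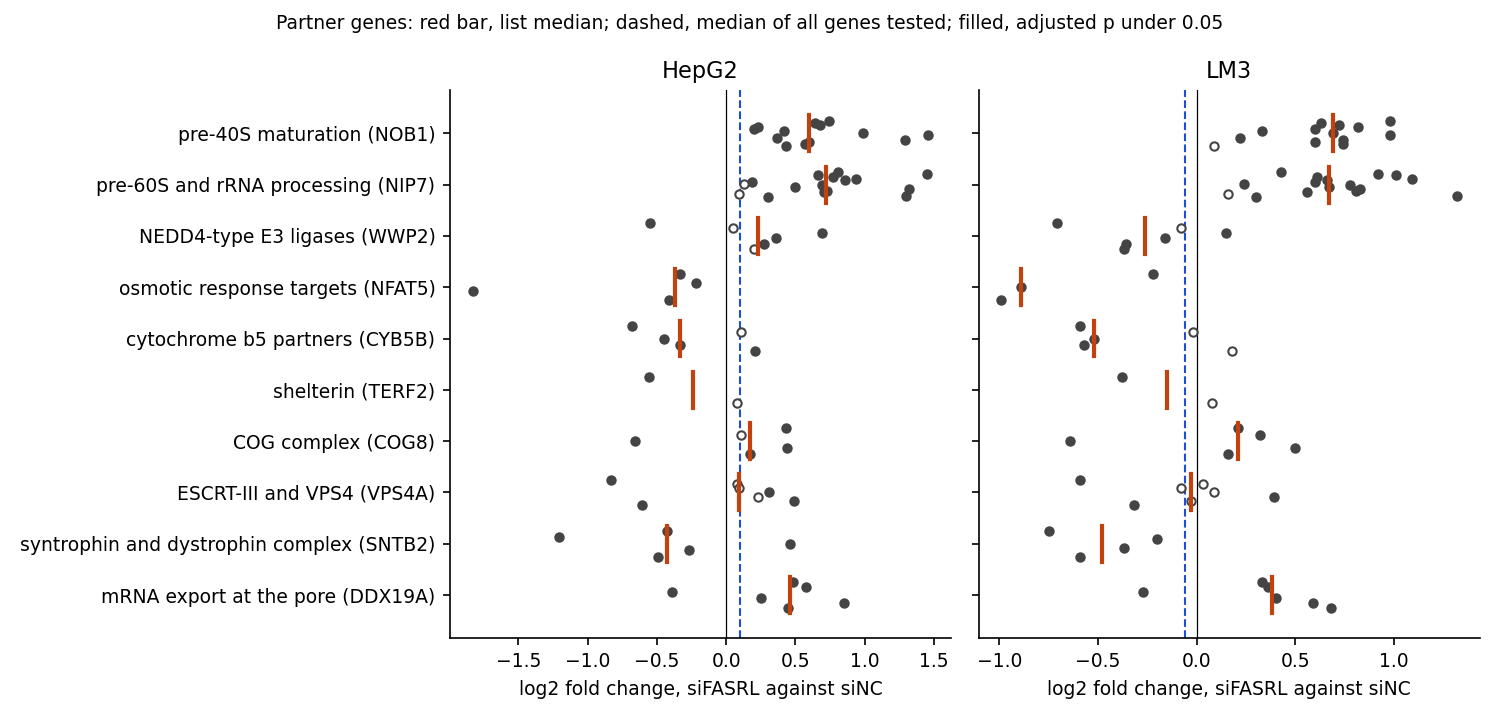
Log2 fold change (siFASRL against siNC) of partner genes tested in HepG2 (left) and LM3 (right), 1 point per gene, filled where the adjusted p was under 0.05, by list with the member it belongs to in brackets. Red bars are list medians and the dashed line is the median of all genes tested; the ribosome assembly lists had medians of 0.60 to 0.72, and the NFAT5 and SNTB2 lists had medians below 0 in both lines.

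Likeness to NOB1 was measured by Pearson's r of log2(value + 1) over the 12 libraries, which fall into 4 groups, among 7348 other genes tested in both lines. The 5 genes most like it were C19orf48P (r = 0.998), EIF6 (0.985), BACE2 (0.983), KLF10 (0.980) and DCTN4 (0.971). EIF6, which keeps the large subunit from joining too early and is also in the NIP7 list, rose by 0.66 ± 0.056 (SE) in HepG2 and 1.01 ± 0.072 (SE) in LM3. C19orf48P rose by 0.57 in HepG2 and 1.15 in LM3, BACE2 by 0.26 and 0.39, KLF10 by 0.34 and 0.65, and DCTN4 by 0.22 and 0.53. These genes were picked by r with NOB1 in the same libraries, so a rise in both lines follows from the choice. No gene within 500 kb of FASRL was among the 5, which says little, since few of the 7348 genes lie there. NIP7 had an r of 0.855 with NOB1 and rank 313, and VPS4A an r of 0.470 and rank 1989. NFAT5 and SNTB2 had an r of -0.884 and -0.914.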

How the data were processed

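RNA-seq of poly(A) RNA from HepG2 and LM3 cells was read from 12 libraries, 3 for each of 4 groups. Upstream processing by the authors used SOAPnuke for read filtering, HISAT2 for genome mapping, Bowtie2 against a coding gene set and RSEM for quantification. The deposited values are RSEM expression values normalized by the authors, and whether they are FPKM or TPM is not stated, so levels of the flanking genes were not compared between genes, and marker sums are plain sums of these values. They are not counts, and the sequencing depth is unknown. The labels name hg19, while the chromosome accessions in the tables belong to GRCh38. Of 7923 gene starts compared, 7623 (96.21%) lay within rounding of those of GRCh38. Of 8707 genes with a strand in GENCODE, 1886 (21.66%), NOB1 among them, are on minus there and plus in the strand column, which was not used. Whether counting used strand is not stated. 6 LM3 columns repeated in another table were not used.

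A count test had been named first, and limma 3.58.1 in R 4.3.3 was used because the values are not counts. Values were analysed as log2(value + 1). A gene was tested when at least 3 libraries of the comparison had a value of 1 or more. Moderated t-tests compared siFASRL with siNC within each line, the effects of the lines (LM3 minus HepG2), and LM3 with HepG2 under siNC. Adjusted p is by Benjamini and Hochberg over all genes tested, with a threshold of 0.05, and the code was tested on simulated data. Exact permutation p-values for 3 against 3 libraries were computed beside them. The members and gene lists were chosen with earlier results of these data known. Genes were named by rule: all listed members, listed coding genes within 500 kb of FASRL, from each partner list up to 3 called genes of lowest p with an absolute log2 change of at least 1 in either line or otherwise the 2 of lowest p, and the 5 genes most like NOB1 by Pearson's r, beside cell markers. Genes named outside this rule are marked in the text.

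The alternatives were a pseudocount of 0.1, no filter, a filter at 5, median-of-ratios scaling, quantile normalization, the replicate block, a joint fit of all libraries, and each replicate left out in turn. The HepG2 effects had a gap: 15 of 8144 genes lay between -0.2 and -0.04 on the log2 scale, against 1084 between 0.04 and 0.2, while LM3 had 751 and 880 of 7483. How the listed genes were chosen is not stated, so shares of genes called and median changes describe the listed genes and not the genome. The HepG2 median used above as a reference level may depend on that gap.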

Additional observations from a re-analysis of the deposited data

Results flagged for a closer look

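Of 31 named genes tested for a difference of the siFASRL effect between the lines, 19 had an adjusted p under 0.05, beside 46.7% of all 8285 genes tested. Among those tested in both lines it was 17 of 29, beside 42.5% of 7349 genes. Many of the named genes were chosen by low p or by likeness to NOB1, so the counts are not a measure of these genes against others. Each value here is the LM3 effect minus the HepG2 effect on the log2 scale. Among the members it was 0.43 for NOB1 (limma adjusted p 0.00068) and 0.27 for NIP7 (0.0258). PDPR, within 500 kb of FASRL, had 0.36 (0.00122). In the ribosome assembly lists it was -0.47 for RRP12, -0.55 for DHX37, -0.53 for SBDS and -0.49 for EBNA1BP2. Over the whole lists, 6 of 13 pre-40S and 10 of 16 pre-60S genes had a larger change in LM3, so these 4 genes do not stand for their lists.

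Among the other partner genes it was -0.55 for NEDD4 (limma adjusted p 3.46e-05), -0.25 for CYB5R3 (0.0324), 0.24 for VPS4B (0.00702) and 0.29 for CHMP5 (0.00819). For NXT1 it was -0.26 (limma adjusted p 0.0476) and for GLE1 -0.21 (0.0244). Some calls of such differences among the named genes were lost under alternatives, as counted in the last section. SLC6A12 had 1.75 and SNTB1 had 1.12, but both were under 1 in every LM3 library and not tested there, so these values give the fall in HepG2 and say nothing of a response in LM3. Among the genes most like NOB1 it was 0.58 for C19orf48P, 0.35 for EIF6, 0.31 for KLF10 and 0.31 for DCTN4.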

How the results depend on the processing

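Of 130 member effects under another setting, 122 kept their direction and their side of the threshold, as did 142 of 150 with 1 replicate left out. For the other named genes these were 486 of 506 and 572 of 612. Of the rest, 9 and 24 were weaker with the call lost, most of them differences between the lines. Counts of calls stayed within 1.5 times in 80 of 80 and 82 of 84 cases. The number of members called for the difference between the lines ranged from 1 to 2 with a replicate left out, NIP7 being lost. Quantile normalization turned that difference to 0.01 for NFAT5, -0.01 for DKC1, 0.01 for WWP1 and 0.19 for TINF2. A pseudocount of 0.1 gave 0.00 for DKC1 and 0.00 for TINF2, and median-of-ratios scaling gave 0.06 for TINF2. With a replicate left out, the difference ranged from -0.03 to 0.08 for DKC1, from -0.03 to 0.03 for TINF2 and from -0.03 to 0.07 for COG3, and the PDF change in LM3 ranged from -0.08 to 0.12. None of the effects that turned had been called, and the cause was not tested. With the replicate block, calls went from 7257 to 7356 in HepG2, from 5790 to 5691 in LM3, from 3868 to 3735 for the difference and from 6618 to 6829 under siNC. Replicate numbers were not taken to pair samples in the main fits. Deviations of same-numbered siNC and siFASRL libraries had an r of 0.300, 0.347 and -0.182 in HepG2 and of -0.082, 0.089 and -0.149 in LM3. Same-numbered siNC libraries of the 2 lines were not compared in this way. The depth is unknown, so its limit on low values was not tested. The tables hold part of the coding genes, and 5 of the 10 flanking genes could not be read.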
